A study of Mus musculus with 12 samples.

Results

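The 8 genes described here mark the primitive endoderm of the mouse blastocyst: the transcription factors Gata4, Gata6, Sox17 and Sox7, the endocytic adaptor Dab2, and the matrix genes Lama1, Lamb1 and Sparc. They were taken by name from a list and found by their symbols among the 55401 genes of the count data, and all 8 were present and passed the filter on low counts. Expression was measured by bulk RNA-seq in 3 lines of mouse totipotent potential stem (TPS) cells and 3 lines of mouse extended pluripotent stem (EPS) cells, each sequenced as 2 technical replicates, which gave 12 libraries. TPS cells are kept in the CPEC condition, which combines CD1530 (an agonist of RARγ), VPA (which inhibits histone deacetylases), EPZ004777 (which inhibits DOT1L) and an inhibitor of GSK3, and the labels name their medium VCED. EPS cells were kept in LCDM medium, and the labels put both cell types on feeder cells, which for TPS cells are mitomycin C inactivated mouse embryonic fibroblasts. The origin of each TPS line and any link between a TPS line and the EPS line of the same number are not given in the sources used here. Neither medium is the one the study used to induce primitive endoderm-like cells, so the levels below are those of stem cell cultures. That induction medium does overlap with the CPEC condition. It holds retinoic acid and the same GSK3 inhibitor, besides FGF4 and a cAMP analogue. The part of the shared signals in the levels below was not tested. Each culture is a mixture of all cells in the dish and of any feeder cells harvested with them.

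Primitive endoderm is the extraembryonic lineage that separates from the epiblast inside the blastocyst and later gives rise to the parietal and visceral endoderm of the yolk sacs. FGF4 made by epiblast precursors acts through FGF receptors and the MAP kinase cascade to keep Gata6 on and Nanog off in primitive endoderm precursors, and Sox17, Gata4 and Sox7 follow as the cells mature. Mature cells take up nutrients through receptors that Dab2 links to the endocytic machinery, and they lay down a basement membrane of laminin, collagen IV and Sparc.

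Total counts ranged from 13676051 to 21821707 per library and from 29877215 to 38466294 per line after the technical replicates were summed. Per line, the members were covered by 8 to 149 counts for Sox17, by 22 to 455 for Gata6, by 23 to 113 for Sox7, by 112 to 257 for Gata4 and by 215 to 2059 for Dab2, while the 3 matrix genes had at least 1082 counts in each line. No other gene had a near-identical transcript for any of the 8, and the genes that overlap Gata6, Sox17 and Dab2 on the opposite strand had at most 11 counts in all TPS libraries together. The labels were checked on the totipotency gene Zscan4c. It was measured at 72.7, 89.4 and 106 CPM in TPS lines 1 to 3 and had 2 counts in all EPS libraries together. All 10 epiblast genes examined passed the filter on low counts, but this does not check the labels, since both cell types express them. CPM is the depth-normalised count of a gene, relative to the library total times the TMM composition factor of the library. The replicate is the line, and nothing states that the lines came from separate animals, so p-values measure the spread between these lines.

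Of the 8 primitive endoderm genes, 4 were higher in TPS lines when the cell types were compared with the edgeR quasi-likelihood test at an adjusted p under 0.05, namely Gata6, Sox17, Dab2 and Lamb1. Lama1 was the only member called lower, and Gata4, Sox7 and Sparc were not called. The number called higher was 2 without EPS line 1, where Dab2 and Lamb1 lost their calls, and 1 at a threshold of 0.01. Over all 17468 genes tested, 14.4% were called higher and 7.34% were called lower. These shares are the background for the counts of each gene list below. The median log2 fold change was 0.78 over the 8 members and -0.0038 over all genes tested. The TPS lines were all above the EPS lines for these 4 genes, as for 23.6% of all genes tested, and were all below them for Lama1, as for 19.1%. In bulk RNA, fewer cells of a type and less RNA per cell cannot be told apart.

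**Figure D1:**
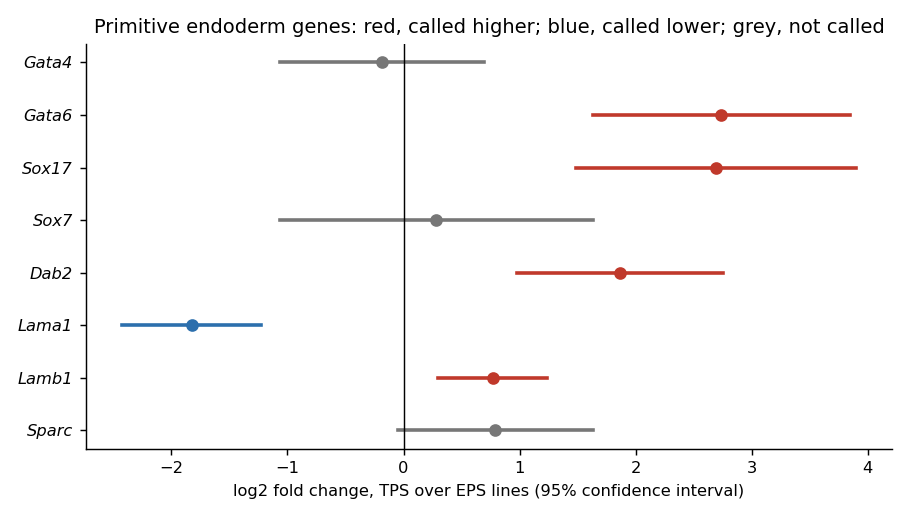
Log2 fold change of each primitive endoderm gene between 3 TPS and 3 EPS lines (x axis), with points for the edgeR estimate and lines for its 95% confidence interval. Gata6 and Sox17 lie near 2.7, Dab2 at 1.86 and Lamb1 at 0.77, Lama1 lies at -1.83, and the intervals of Gata4, Sox7 and Sparc include 0.

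Among the transcription factors, Gata6 and Sox17 were higher in TPS lines, whereas Gata4 and Sox7 were not called. Gata6 (ENSMUSG00000005836.10, chromosome 18 of GRCm38, 11052064 to 11085635, plus strand) encodes the GATA factor that starts the primitive endoderm programme. It was measured at 4.72, 11.8 and 9.37 CPM in TPS lines 1 to 3 and at 0.718, 1.38 and 1.76 CPM in EPS lines 1 to 3. The lowest TPS line thus had more Gata6 RNA than the highest EPS line, and within TPS cells line 1 was the low one. The means were 8.63 ± 3.59 CPM (SD, n = 3) and 1.29 ± 0.530 CPM (SD, n = 3). The log2 fold change in the edgeR fit was 2.74, a fitted fold of 6.66 (standard error 0.48, 95% confidence interval 1.63 to 3.84, edgeR adjusted p = 0.00880).

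Sox17 (ENSMUSG00000025902.13, chromosome 1, 4490931 to 4497354, minus strand) encodes an SRY-box factor of primitive and definitive endoderm. Its level was low throughout, at 1.65, 3.86 and 1.87 CPM in TPS lines 1 to 3 and at 0.261, 0.559 and 0.313 CPM in EPS lines 1 to 3. Line 2 was the highest of its cell type on both sides, and the cell types did not overlap. The 2 libraries of 1 line were apart by up to 2.23-fold. The log2 fold change was 2.69 (standard error 0.52, 95% confidence interval 1.48 to 3.90, edgeR adjusted p = 0.0123), from means of 2.46 ± 1.22 and 0.378 ± 0.159 CPM (SD, n = 3 each). The annotated transcript Gm37587 covers 804 bases of the Sox17 exons on the other strand and had 0 counts in every library. Gata6 and Sox17 kept their calls whichever of the 6 lines was dropped, with log2 fold changes of 2.43 to 3.03 and of 2.20 to 3.06.

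Gata4 (ENSMUSG00000021944.15, chromosome 14, 63198922 to 63271692, minus strand) encodes the GATA factor that follows Gata6 in maturing primitive endoderm. It was measured at 2.80, 6.66 and 5.31 CPM in TPS lines 1 to 3 and at 7.08, 4.50 and 5.18 CPM in EPS lines 1 to 3. The lines of the 2 cell types were interleaved, and TPS line 1 was the lowest of all. The log2 fold change was -0.18 with a 95% confidence interval of -1.06 to 0.69 (standard error 0.38, edgeR adjusted p = 0.760), and it was 0.10 when TPS line 1 was left out.

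Sox7 (ENSMUSG00000063060.6, chromosome 14, 63943673 to 63950732, plus strand) encodes an SRY-box factor of later, mainly parietal, endoderm. It stood at 1.95, 1.19 and 3.59 CPM in TPS lines 1 to 3 and at 0.751, 1.97 and 2.79 CPM in EPS lines 1 to 3. Both cell types covered about the same range, and the 2 libraries of 1 line could be apart by up to 2.11-fold. The log2 fold change was 0.28 with a 95% confidence interval of -1.07 to 1.63 (standard error 0.58, edgeR adjusted p = 0.760). It turned to -0.11 without EPS line 1 and to -0.23 without TPS line 3. For both Gata4 and Sox7 the interval still allows a difference of more than 1 on the log2 scale.

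**Figure D2:**
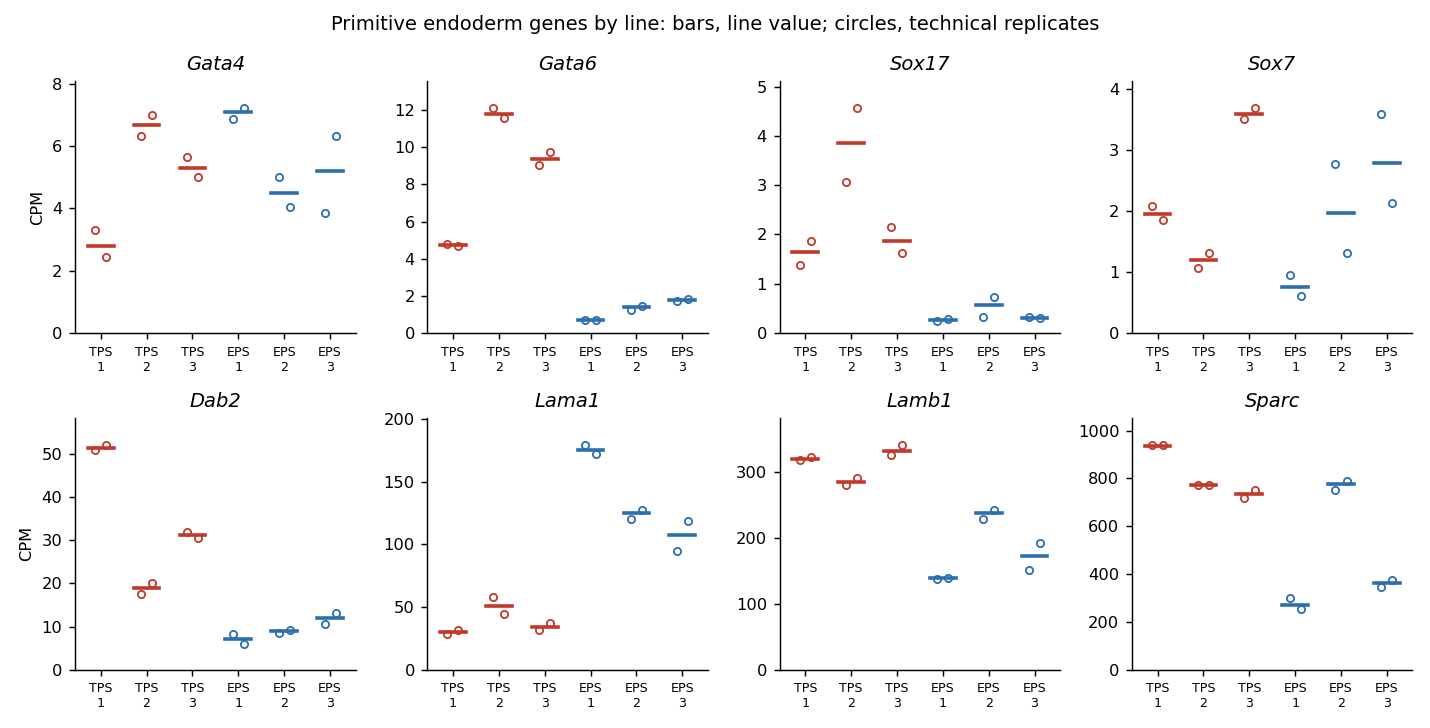
CPM of the 8 genes in each line (y axes start at 0 and differ between genes), with a bar for the line and open circles for its 2 technical replicates, TPS in red and EPS in blue. Gata6, Sox17, Dab2 and Lamb1 sit higher in every TPS line, Lama1 sits lower in every TPS line, and the cell types overlap for Gata4, Sox7 and Sparc.

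The balance of the 4 factors differed between the cell types when levels were compared per length as TPM, which divides counts by the length of the annotated exons. In TPS lines Gata6 stood at 3.74 ± 1.60 TPM and Gata4 at 3.56 ± 1.46 TPM (SD, n = 3), and their ranges over the lines overlapped. Within each TPS line Gata6 was slightly above Gata4, at 2.01, 5.16 and 4.06 against 1.99, 4.86 and 3.83 TPM in lines 1 to 3. The gap depends on the length used. With the longest transcript it was 2.76, 7.03 and 5.52 against 1.82, 4.42 and 3.48 TPM. In EPS lines Gata4 stood at 3.48 ± 0.515 TPM, above Gata6 at 0.501 ± 0.239 TPM (SD, n = 3), and these ranges did not overlap. Sox7 stood at 1.91 ± 1.04 TPM in TPS and 1.42 ± 0.868 TPM in EPS lines, and Sox17 at 1.46 ± 0.739 and 0.198 ± 0.0929 TPM (SD, n = 3). The ranges of Sox7 and Sox17 overlapped in TPS lines, and the order of their means there turned with the longest transcript as length. The 4 factors summed to 6.60, 13.4 and 12.1 TPM in TPS lines 1 to 3 and to 4.86, 5.34 and 6.61 TPM in EPS lines 1 to 3.

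GATA and SOX factors of this set are also used outside the primitive endoderm, in heart, endothelium and definitive endoderm, so markers of those tissues were read beside them. Of 8 cardiac mesoderm markers tested out of 10, 4 were called higher (Hand2, Myh6, Tnnt2 and Actn2) and 0 lower, and their summed level reached 19.1 CPM in TPS lines, each of which was above the 4.11 to 9.14 CPM of the EPS lines. The number of cardiac markers called higher was 2 without EPS line 2 and 2 without TPS line 2, where 1 was also called lower. Of 6 endothelial markers tested out of 10, Kdr and Tie1 were called higher and Tek lower, the summed level was 101 to 136 CPM in TPS and 95.8 to 129 CPM in EPS lines, most of it Pecam1, and Emcn had 0 counts in all libraries. The lines of the cell types overlapped for Tie1. No endothelial marker was called higher without EPS line 1, without TPS line 3 or with the line number as a block, 1 was called higher without EPS line 2, and none was called lower in 5 of 6 fits with a line dropped, all but that without EPS line 1. Of 6 definitive endoderm markers tested out of 8, Cdx1 was called higher, and Trh and Epcam were called lower. Their summed level was 338 to 362 CPM in TPS and 1353 to 2085 CPM in EPS lines, most of it Trh in EPS lines. The number called lower was 1 without EPS line 2, EPS line 3, TPS line 1 or TPS line 3, and the number called higher was 2 without TPS line 1. Cdx1 encodes a caudal homeobox factor that retinoic acid is known to induce, and Epcam encodes an epithelial adhesion protein that pluripotent cells also make. The part of such cells in the levels of the 4 factors was not tested.

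Dab2 (ENSMUSG00000022150.16, chromosome 15, 6299788 to 6440712, plus strand) encodes the clathrin adaptor that carries LRP2 and cubilin into visceral endoderm cells. It was measured at 51.4, 18.9 and 31.1 CPM in TPS lines 1 to 3 and at 7.02, 8.92 and 11.9 CPM in EPS lines 1 to 3. TPS line 1 was highest, and every TPS line was above every EPS line. The means were 33.8 ± 16.5 and 9.28 ± 2.46 CPM (SD, n = 3 each), and the log2 fold change was 1.86 (standard error 0.38, 95% confidence interval 0.98 to 2.75, edgeR adjusted p = 0.0145). With each line dropped in turn the adjusted p ranged from 0.0104 to 0.0548, and the call was lost without EPS line 1 and without EPS line 2.

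The start of the Dab2 gene is shown because it is the upstream stretch of a called member in which a GATA word was found, and that of Lamb1 is shown beside it as the other called member with a stretch in the sequence table. Both come from RefSeq on build GRCm38.p6, lie on the plus strand, run 5′ to 3′ and end before the first annotated exon base, and capitals mark the words searched for. The Dab2 stretch is chr15:6299589-6299787 and the Lamb1 stretch is chr12:31265093-31265233.
Dab2: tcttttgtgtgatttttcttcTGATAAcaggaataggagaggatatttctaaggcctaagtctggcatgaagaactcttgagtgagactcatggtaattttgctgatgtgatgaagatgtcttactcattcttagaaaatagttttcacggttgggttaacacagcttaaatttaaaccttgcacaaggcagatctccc
Lamb1: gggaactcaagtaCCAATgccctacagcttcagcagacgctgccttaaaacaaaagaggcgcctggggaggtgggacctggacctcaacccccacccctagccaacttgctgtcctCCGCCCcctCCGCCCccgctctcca
The words searched for on both strands were AGATAA or TGATAA for GATA factors, ACAATG or ACAAAG for SOX factors, GGGCGG for the GC box, CCAAT, and TATAAA. Dab2 has TGATAA at positions -179 to -174 counted from its start site, and a later Dab2 start holds none of the words. Lamb1 has CCAAT at positions -187 to -183 and GGGCGG on the minus strand at -84 to -79 and at -75 to -70. Of the 32851 windows of 200 bases in the table, 13.2% hold a GATA word, 20.6% a SOX word, 31.0% a GC box and 29.4% CCAAT. The words are common, and a match is a description of these letters only.

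Dab2 was higher together with other surface and uptake genes of extraembryonic endoderm. All 10 genes of that list were tested, 9 were called higher and 0 lower, and their median log2 fold change was 3.05. Over all genes tested, 14.4% were called higher. Fits without 1 line called between 6 and 9 of them, and the fit with the line number as a block called 6. Cubn, which encodes the uptake receptor cubilin, was measured at 7.82, 3.63 and 14.4 CPM in TPS lines 1 to 3 and at 0.0326, 0.177 and 0.313 CPM in EPS lines 1 to 3 (log2 fold change 5.57, standard error 0.79, edgeR adjusted p = 0.00457). With a line dropped its log2 fold change ranged from 4.98 without TPS line 3 to 6.27 without EPS line 3, and the call was kept. Its partner Amn, which holds cubilin at the membrane, and the large uptake receptor gene Lrp2 are named for their role beside Cubn, with their values already seen. Lrp2 stood at 26.3, 28.9 and 31.7 CPM in TPS lines 1 to 3 and at 3.53, 2.68 and 8.25 CPM in EPS lines 1 to 3 (log2 fold change 2.58, standard error 0.42, edgeR adjusted p = 0.00692), with a log2 fold change of 3.21 without EPS line 3. The TPS lines were close to each other for Lrp2, unlike for Dab2, and lay above all EPS lines. Amn had a log2 fold change of 1.78 (edgeR adjusted p = 0.00974). Dpp4, a surface peptidase gene, rose by 5.003 on the log2 scale (edgeR adjusted p = 0.000727) and Pth1r, the receptor gene for parathyroid hormone-related peptide, by 3.90 (edgeR adjusted p = 0.00369). Thbd, which encodes thrombomodulin, had a log2 fold change of 3.52 (edgeR adjusted p = 0.0178), which was 2.91 without TPS line 1, and its call was lost without EPS line 2. Aqp8, a water channel gene, was at 0.667 to 1.02 CPM in TPS lines and at no more than 0.0326 CPM in EPS lines, and its call rests on few counts.

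Fibroblast markers also moved with the cell type, in the direction of Dab2. Of 16 fibroblast markers tested, 10 were called higher in TPS lines and 0 lower, and their median log2 fold change was 1.90. The count was 4 without EPS line 2, 5 without TPS line 1 and 6 without TPS line 3. They summed to 6838, 3805 and 4375 CPM in TPS lines 1 to 3 and to 394, 1606 and 1665 CPM in EPS lines 1 to 3, and none of the 16 was at 0 in all libraries. The strongest calls by size were Fap, Twist2, Col1a1 and Pdgfrb. Fap lost its call without EPS line 2, and Twist2 in 5 of 6 fits with a line dropped, all but that without TPS line 2. Col1a1, a fibrillar collagen gene with the highest mean TPM of the list, stood at 2363, 1740 and 1386 CPM in TPS and at 79.4, 433 and 378 CPM in EPS lines 1 to 3. Fibroblasts also express Dab2, Lamb1, Sparc, Pdgfra and Thbd, and the part of feeder RNA in these results was not tested. These names are not a full list, since Dpp4 and the other uptake genes were not screened for expression in fibroblasts.

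**Figure D3:**
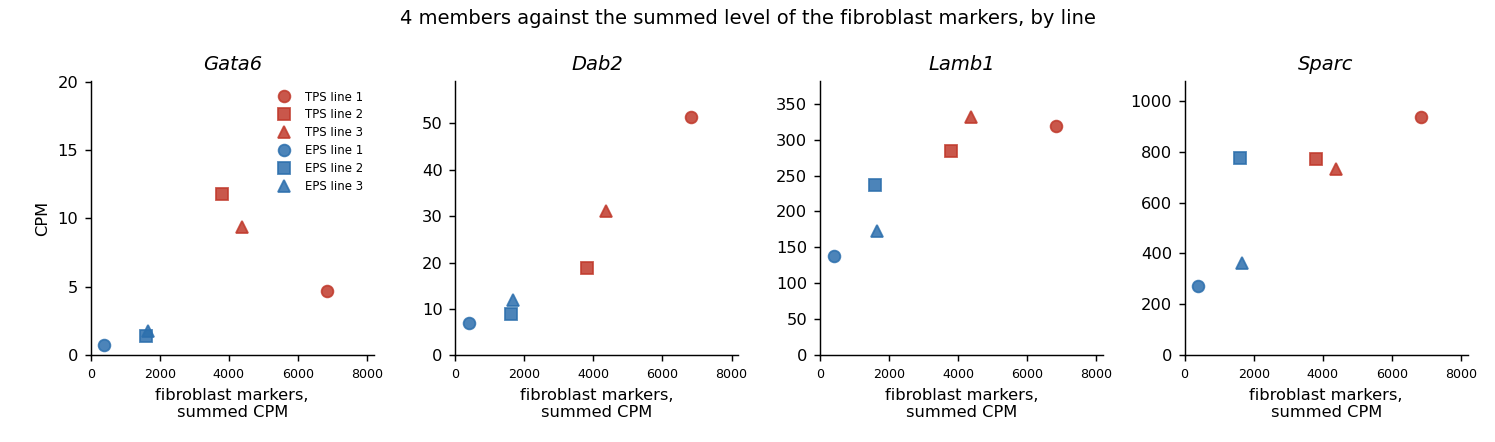
CPM of Gata6, Dab2, Lamb1 and Sparc (y axes from 0) against the summed CPM of 16 fibroblast markers (x axis), 1 point per line, TPS in red and EPS in blue. The fibroblast sum is higher in each TPS line than in each EPS line, as are Gata6, Dab2 and Lamb1, and Sparc in EPS line 2 is at the level of the TPS lines.

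Of the 3 matrix genes, Lama1 was lower in TPS lines, Lamb1 was called higher at a log2 fold change of 0.77, and Sparc was not called at a similar estimate of 0.79. Lama1 (ENSMUSG00000032796.8, chromosome 17, 67697259 to 67822647, plus strand) encodes the α1 chain of laminin-111, the first laminin of the embryo. It was measured at 30.1, 50.6 and 34.4 CPM in TPS lines 1 to 3 and at 176, 125 and 107 CPM in EPS lines 1 to 3. The highest TPS line was below the lowest EPS line. The means were 38.4 ± 10.8 and 136 ± 35.4 CPM (SD, n = 3 each), and the level fell by 1.83 on the log2 scale (standard error 0.26, 95% confidence interval -2.42 to -1.23, edgeR adjusted p = 0.00457). Fits without 1 line gave log2 fold changes of -2.08 to -1.62 and kept the call in each case.

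Lamb1 (ENSMUSG00000002900.17, chromosome 12, 31265234 to 31329644, plus strand) encodes the β1 chain, which pairs with several α chains. It was measured at 319, 284 and 332 CPM in TPS lines 1 to 3 and at 138, 237 and 173 CPM in EPS lines 1 to 3. The TPS lines lay within a narrow range and EPS line 2 came closest to them. The log2 fold change was 0.77 (standard error 0.20, 95% confidence interval 0.30 to 1.24, edgeR adjusted p = 0.0333), a fitted fold of 1.71. The call was lost in 5 of 6 such fits, all but that without EPS line 2, with adjusted p from 0.0216 to 0.0985, and in the fit with the line number as a block (edgeR adjusted p = 0.0604).

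Sparc (ENSMUSG00000018593.13, chromosome 11, 55394500 to 55423183, minus strand) encodes a secreted collagen-binding glycoprotein that is abundant in parietal endoderm and in fibroblasts. It was measured at 937, 772 and 733 CPM in TPS lines 1 to 3 and at 272, 776 and 362 CPM in EPS lines 1 to 3. EPS line 2 lay among the TPS lines, while the other EPS lines were well below them. The log2 fold change was 0.79 with a 95% confidence interval of -0.05 to 1.63 (standard error 0.36, edgeR adjusted p = 0.154). Without EPS line 2 it was 1.34 (edgeR adjusted p = 0.0150), and with each line dropped in turn the adjusted p ranged from 0.0150 to 0.333.

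Since laminin is assembled from 1 α, 1 β and 1 γ chain, the chains were also compared per length within each line. The ratio of Lama1 to Lamb1 in TPM was 0.0966, 0.182 and 0.106 in TPS lines 1 to 3 and 1.30, 0.540 and 0.637 in EPS lines 1 to 3. Every TPS line had a lower ratio than every EPS line. The ratio itself depends on the exon length used and was 0.0573 to 0.108 in TPS and 0.320 to 0.770 in EPS lines with the longest transcript of each gene, while the difference between the cell types does not. The mean log2 ratio was -3.02 ± 0.49 in TPS and -0.39 ± 0.67 in EPS lines (SD, n = 3 each), a difference of -2.63. A two-sided exact permutation test over the lines gave p = 0.1, the smallest p that 3 lines against 3 allow. This p was fixed in advance, since Lama1 was lower and Lamb1 higher in every TPS line, and it adds no support to those values. The ratio of Lamb1 to Lamc1, which encodes the γ1 chain, was 0.616, 0.427 and 0.648 in TPS lines 1 to 3 and 0.216, 0.355 and 0.291 in EPS lines 1 to 3. Its log2 value differed by 0.98, again with all TPS lines above all EPS lines (two-sided exact permutation p = 0.1). Lamc1 itself was not called (log2 fold change -0.17, edgeR adjusted p = 0.442). The α5 chain gene Lama5, the main alternative to Lama1, stood at 43.3, 87.7 and 63.2 TPM in TPS lines 1 to 3 and at 49.9, 125 and 65.1 TPM in EPS lines 1 to 3. In every line it was above Lama1, which stood at 8.63 to 14.9 TPM in TPS and 29.2 to 39.9 TPM in EPS lines, and it was not called (log2 fold change -0.48, edgeR adjusted p = 0.354).

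**Figure D4:**
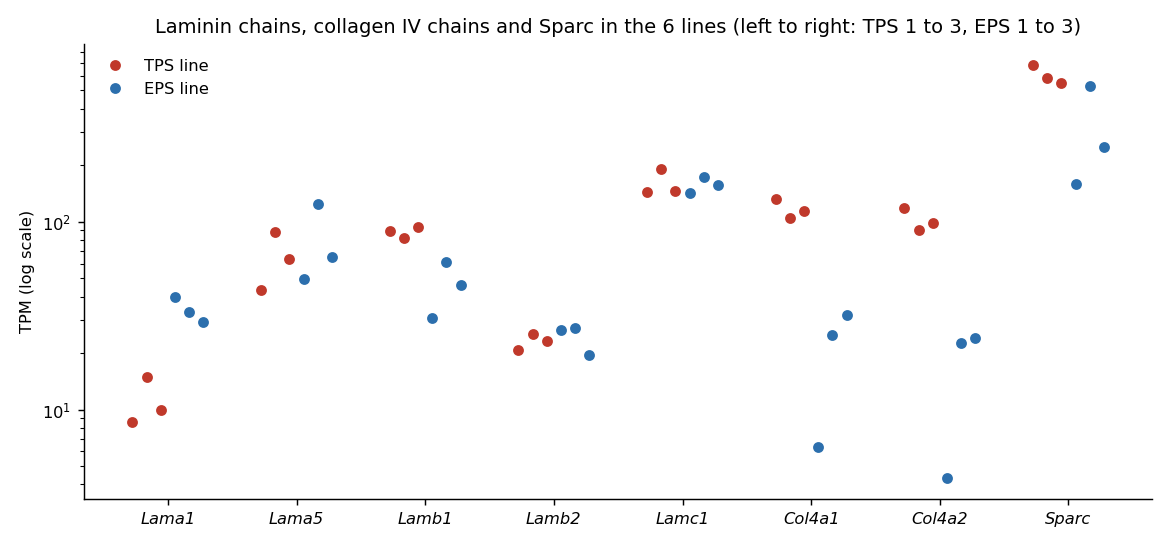
TPM on a log scale of 5 laminin chain genes, 2 collagen IV chain genes and Sparc, with 1 point per line, TPS in red and EPS in blue. Lama1 is lower and Lamb1, Col4a1 and Col4a2 are higher in every TPS line, while Lama5, Lamb2, Lamc1 and Sparc overlap between the cell types.

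Among 16 other basement membrane genes, all tested, 3 were called higher and 0 lower, and the median log2 fold change was 0.24. Over all genes tested, 14.4% were called higher and 7.34% lower, so the count is not read as a result about the list. The 3 were the collagen IV chains Col4a1 and Col4a2 and Serpinh1, the collagen chaperone gene. Col4a1 was measured at 354, 276 and 302 CPM in TPS lines 1 to 3 and at 21.4, 72.4 and 90.1 CPM in EPS lines 1 to 3, which gave a log2 fold change of 2.34 with a standard error of 0.46 (edgeR adjusted p = 0.0133). Col4a2, which lies next to Col4a1 and pairs with it in the collagen IV triple helix, differed by 2.46 (edgeR adjusted p = 0.0158) and Serpinh1 by 1.33 (edgeR adjusted p = 0.0157). Every EPS line was below every TPS line for these 3 genes, as for 23.6% of all genes tested. Col4a1, Col4a2 and Serpinh1 are used by fibroblasts as well, whose marker sums are given above. Without TPS line 2, 5 genes of this list were called higher and 1 lower, and Serpinh1 lost its call without EPS line 1 and without EPS line 2.

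In the order of levels per length, Sparc came first on both sides, at 604 ± 73.4 TPM in TPS and 312 ± 191 TPM in EPS lines (SD, n = 3), and Lamb1 second at 88.4 ± 6.32 and 46.0 ± 15.3 TPM. In TPS lines Dab2 at 12.9 ± 6.12 TPM and Lama1 at 11.2 ± 3.30 TPM followed, with ranges that overlapped. In EPS lines Lama1 came next at 34.1 ± 5.41 TPM, with a range that overlapped that of Lamb1, and Dab2 stood at 3.16 ± 1.08 TPM, a range that overlapped that of Gata4. With the longest transcript as length, a check added after the values were seen, Lama1 at 23.4 to 32.0 TPM no longer overlapped Lamb1 at 41.5 to 82.6 TPM in EPS lines. The 8 genes summed to 810, 698 and 673 TPM in TPS lines 1 to 3 and to 236, 629 and 337 TPM in EPS lines 1 to 3. Between 96.4% and 98.7% of that sum came from Sparc, Lamb1 and Lama1, so a summed primitive endoderm level is in practice a level of matrix RNA, and by that sum EPS line 2 stood next to the TPS lines.

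An edgeR test of the 3 lines of each cell type against each other had only the spread between technical replicates to set against the spread between lines. It called 73.3% of the 17346 genes it could be run on, so its calls of the 8 members say nothing particular about them, and the members' spread between lines is given by the values above.

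Across the 12 libraries, which are pairs from 6 lines, Gata6 and Sox17 were the most alike of the factors, with a Pearson correlation of log2(CPM + 1) of 0.94. Lamb1 and Sparc had a correlation of 0.93, and Dab2 and Lama1 ran opposite at -0.96. Gata4 was near 0 with Gata6 (-0.03) and with Sox17 (-0.02). These values are descriptions, since the libraries share their lines and cell types. Over 17453 genes compared, the genes most like each member in this measure were Zfp703 (0.996) and Tap2 (0.990) for Gata6, Nxf7 (0.986) and Krt20 (0.983) for Sox17, Rheb (0.954) and Plk5 (0.937) for Gata4, and Adat1 (0.943) and Noc3l (0.930) for Sox7. For Dab2 they were Ifngr2 (0.993) and Wipf1 (0.991), for Lama1 Rad1 (0.991) and Relb (0.990), for Lamb1 Zswim6 (0.986) and Hipk2 (0.986), and for Sparc AI481877 (0.978) and Xlr3a (0.976). No member was among the top pair of another.

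Upstream of the factors, the FGF pathway genes differed in opposite directions. All 12 genes of the FGF list were tested, 4 were called higher and 1 lower, and their median log2 fold change was 0.19. Fgf4, the epiblast ligand that specifies primitive endoderm, stood at 134, 115 and 153 CPM in TPS lines 1 to 3 and at 452, 355 and 252 CPM in EPS lines 1 to 3. It fell by 1.40 on the log2 scale (standard error 0.23, edgeR adjusted p = 0.00701), with no overlap between the cell types. Of the 4 receptor genes in the list, Fgfr1 and Fgfr2 were called higher, and Fgfr3 and Fgfr4 were not called. Fgfr1, named as the remaining call of the list after its values were seen, stood at 199, 158 and 198 CPM in TPS and at 66.3, 88.2 and 84.8 CPM in EPS lines 1 to 3 (log2 fold change 1.21, edgeR adjusted p = 0.00409). Fgfr2, the receptor enriched in primitive endoderm, stood at 14.2, 8.71 and 9.98 CPM in TPS and at 0.751, 3.03 and 1.14 CPM in EPS lines 1 to 3 (log2 fold change 2.73, standard error 0.54, edgeR adjusted p = 0.0128), and the log2 fold change was 3.50 without EPS line 2. Fgf8, a ligand of the gastrulating embryo, differed by 3.82 (edgeR adjusted p = 0.0109) and Fgf5, a ligand of the primed epiblast, by 2.11 (edgeR adjusted p = 0.0495). The Fgf5 call was lost in 5 of 6 fits with a line dropped, all but that without TPS line 2. Grb2, Sos1, Ptpn11 and Mapk3, which carry the signal inside the cell, were not called.

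Other transcription factors of extraembryonic endoderm were mostly at low levels. Of 11, 9 were tested, 4 were called higher and 1 lower, and the median log2 fold change was 0.91. Foxa1, a forkhead factor of visceral endoderm, stood at 0.824, 3.08 and 1.94 CPM in TPS lines 1 to 3 and at 0.131, 0.0589 and 0.171 CPM in EPS lines 1 to 3 (edgeR adjusted p = 0.00774). The cell types did not overlap. Foxq1 and Hhex were called higher too, with log2 fold changes of 2.51 and 0.82 (edgeR adjusted p = 0.0137 and 0.0402), and Hhex lost its call whichever line was dropped. Foxa3 fell by 1.52 (edgeR adjusted p = 0.0333), but 0 genes of this list were called lower with the line number as a block and in 5 of 6 fits with a line dropped, all but that without EPS line 3. Otx2, the gene with the highest mean TPM of this list, was not called (log2 fold change -0.36, edgeR adjusted p = 0.609).

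Of 13 genes for secreted products of visceral endoderm, 8 were tested, 3 were called higher and 1 lower, and Afp, Ttr, Apoa1, Cer1 and Ihh did not pass the filter on low counts. Apob, Rbp4 and Bmp2 were called higher, with log2 fold changes of 3.43, 2.90 and 4.00 (edgeR adjusted p = 0.0169, 0.0171 and 0.0379). Bmp2 stood at 1.149, 18.0 and 2.38 CPM in TPS lines 1 to 3 and at 0.294, 0.265 and 0.768 CPM in EPS lines 1 to 3, so its fold change rests largely on TPS line 2. Without that line the log2 fold change was 1.97 (edgeR adjusted p = 0.0763), and the call was also lost without each EPS line in turn. The number of genes called higher was 1 without EPS line 1 and also 1 without EPS line 2, and Apob also lost its call without TPS line 3. Rbp4 had a log2 fold change of 2.19 without TPS line 2, and its call was lost without EPS line 1. Apoe, an apolipoprotein gene that pluripotent cells and many other cells also express, fell by 1.82 (edgeR adjusted p = 0.00644), from 1884, 2235 and 1455 CPM in EPS lines 1 to 3 to 489, 353 and 731 CPM in TPS lines 1 to 3. Apoe alone made up most of the summed level of this list, which was 442 to 881 CPM in TPS and 1522 to 2281 CPM in EPS lines.

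On the epiblast side, 0 of 10 genes were called higher and 5 were called lower in TPS lines (Pou5f1, Klf4, Esrrb, Tfcp2l1 and Tdgf1), with a median log2 fold change of -0.80. The number called lower was 3 without TPS line 1. Nanog, the epiblast factor that opposes Gata6, is named for that role with its values seen. It stood at 586, 387 and 377 CPM in TPS lines 1 to 3 and at 568, 572 and 447 CPM in EPS lines 1 to 3, with overlapping ranges (log2 fold change -0.23, edgeR adjusted p = 0.448). Klf4, a naive pluripotency factor, had the largest change of this list and fell by 2.66 (edgeR adjusted p = 0.00149).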

How the data were processed

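Reads were counted per gene by the authors and deposited as raw counts with no normalization. The submitters' processing notes name fastp 0.19.7, STAR 2.7.3a and build GRCm38.p6 (mm10). The counting tool, annotation and use of strand are not given in the sources used here, and reads of overlapping genes could have been shared. Libraries were oligo(dT)-enriched and paired-end, and intervals cover no error from duplicated PCR reads.

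Gene identifiers were matched to GENCODE M21 without their version (55141 of 55401 matched). Counts of the 2 technical replicates were summed per line, and they differed by more than sampling noise (chi-square per degree of freedom 2.68 to 24.3). TPS and EPS lines were compared with edgeR 4.0.16 in R 4.3.3 (TMM factors, filterByExpr with a minimum of 10 counts and 15 in total, quasi-likelihood test), with Benjamini-Hochberg adjustment over 17468 genes and a threshold of 0.05. Lines of the same cell type were compared in a fit of the 12 libraries. TPM used the union of annotated exons. Near-identical transcripts were sought with blastn 2.17.0 (95% identity over 50% of the length). On simulated counts for the 6 lines, edgeR called 173 of 200 genes changed 4-fold (86.5%) and 9 unchanged genes, out of 17163 tested.

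The 8 members and the other gene lists were chosen with earlier results of these data known. Of each other list the text names up to 4 called genes with the largest change and the gene with the highest mean TPM, and of each member the 2 genes with the most similar pattern. Other names are marked as such or are given for a count. Alternatives were DESeq2 1.42.0, limma-voom (limma 3.58.1), other factors and filters, other replicate units, stricter thresholds, a block for the line number and dropping each line in turn. Single-cell, chromatin and methylation data of the study were not analysed here. The values of some list genes are not reported here.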

Additional observations from a re-analysis of the deposited data

How the results depend on the processing

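Gata6, Sox17 and Lama1 kept their direction and their call in each alternative run, except that Sox17 did not pass a threshold of 0.01. At that threshold 1 of the 8 members was called higher in place of 4. Fits that left out 1 line called between 2 and 4 members higher, with 2 without EPS line 1, and 1 member lower. Dropping each line in turn moved Gata4 between -0.47 and 0.10, where it reversed without TPS line 1, and Sox7 between -0.23 and 0.70. Sox7 reversed to -0.15 with technical replicate 1 of each line alone, to -0.11 without EPS line 1 and to -0.23 without TPS line 3. Sparc was called only with the 12 libraries as separate samples (log2 fold change 0.81, edgeR adjusted p = 0.0207) and without EPS line 2. Same-numbered TPS and EPS lines did not deviate together (correlations of 0.02, -0.12 and 0.04 across genes). Lines of different numbers gave correlations of -0.24 to 0.23, and whether same-numbered lines are linked is not given in the sources used here. With the line number as a replicate block 3 members were called higher and 1 lower, Lamb1 was lost at a log2 fold change of 0.80, and 1714 genes in all were called higher and 721 lower in place of 2509 and 1282. Those counts were 4067 and 3610 with the 12 libraries as separate samples, and 1617 to 2234 higher and 493 to 1047 lower with 1 line dropped. The number of fibroblast markers called higher was 5 with the replicate block and 0 at a threshold of 0.01. Without composition factors the median of all genes shifted to 0.14, and the calls of the 8 members did not change. The split of higher against lower calls over all genes was then 2987 against 745. The laminin ratio of Lama1 to Lamb1 differed by -2.92 to -2.25 when 1 line was left out and that of Lamb1 to Lamc1 by 0.79 to 1.17, and the difference in summed level was 0.59 to 1.34. Another length or scaling leaves these ratio differences as they are by construction. The cause of these changes was not tested. Depth limits Sox17 most, with 8 counts in the line where it was lowest.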

Other observations

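The trophectoderm, the other extraembryonic lineage of the blastocyst, was read from 10 markers, of which 9 were tested. Cdx2 and Gata3, factors that specify trophectoderm, were called higher in TPS lines, and Tead4, which acts upstream of them, was called lower. The number called higher was 0 without TPS line 2, 4 without TPS line 1 and 1 without EPS line 1 or EPS line 2, and 1 with the line number as a block. The number called lower was 2 without TPS line 2 and 2 with the block. The Cdx2 call was lost without EPS line 1, EPS line 2, TPS line 2 or TPS line 3, and the Gata3 call without EPS line 2, TPS line 1 or TPS line 2. Cdx2 stood at 0.675, 3.65 and 9.37 CPM in TPS lines 1 to 3 and at no more than 0.541 CPM in EPS lines. Tead4 stood at 15.3, 20.4 and 17.4 CPM in TPS lines 1 to 3 and at 61.0, 81.4 and 65.5 CPM in EPS lines 1 to 3, and it fell by 1.97 on the log2 scale (edgeR adjusted p = 0.00147). The epithelial keratins of trophectoderm, Krt8 and Krt18, were highest in TPS line 2, at 243 and 198 CPM, and were not called (edgeR adjusted p = 0.124 and 0.055). The names Krt8 and Krt18 were chosen after their values were seen. Tfap2c, the gene with the highest mean TPM of this list, was not called (log2 fold change 0.19, edgeR adjusted p = 0.523).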
